A study of Rattus norvegicus with 3 samples.

Results

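Of the 32731 HILS1 peaks in the deposited list, 765 (2.34%, 95% CI 2.18 to 2.51) had a cadherin or protocadherin as their nearest gene, and these peaks are described here. They were chosen by gene name, with earlier results of these data known. Every peak was taken whose nearest gene in the authors' HOMER annotation began with Cdh or Pcdh followed by a letter or digit. The 765 peaks belonged to 24 genes on 8 chromosomes, and the gene descriptions in the list named a cadherin or protocadherin for each of the 24. HILS1 was immunoprecipitated with an anti-HILS1 antibody from elongating and condensing spermatids of rats aged 50 to 60 days, in 2 ChIP replicates, with 1 input library of sonicated chromatin from the same kind of cells as the control. The labels call the source testicular cells, give neither strain nor genotype and name no treatment. The list gives 1 fold enrichment, 1 false discovery rate and 1 annotation per peak and no value per replicate. The study's methods give a correlation between the replicates, based on the overlap of their peaks. Neither the spread of a peak's values between the replicates nor the read depth behind a peak is known.

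HILS1 is a linker histone made in spermatids while histones are being replaced by transition proteins and protamines. Cadherins are transmembrane proteins that hold cells together by binding cadherins on the neighbouring cell in the presence of calcium, and protocadherins are a larger related family that is best known from the nervous system. Many of their genes have very long introns or stand alone between long stretches without other genes. Long interspersed element 1 (LINE-1, L1) is a retrotransposon that copies itself through RNA, and L1_Rn, L1_Rat1 and RNHAL1 are names that the repeat annotation gives to rat LINE-1 sequences.

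A peak here is 1 row of the list, which is the stretch shared by both replicates. Because such stretches can be pieces of the same MACS peak, the 765 peaks came from 560 called peaks, of which 148 (26.4%) held more than 1 piece and together held 353 pieces. Pieces of a called peak carry the same fold enrichment, a linear ratio of the peak height to the MACS background. Fold enrichments in the list were whole multiples of 0.926 to within 0.01, so that the 765 peaks took 49 different values. Each share is followed by its 95% Wilson interval (CI) and each median by a 95% interval taken from ranked values. Both cover counting error only, and neighbouring peaks are not independent of each other. The comparisons with the whole list are descriptions without a test.

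The peaks were spread unevenly over the 24 genes. Cdh10 carried 107 peaks, Pcdh9 90, Pcdh19 77, Pcdh7 60 and Pcdh20 56, which together made 390 peaks or 51.0% of the 765. A further 12 genes carried between 13 and 54 peaks each, and 7 genes carried fewer than 10. A gene of the family that was named at all had a median of 23 peaks, against 3 over the 4777 genes named in the whole list. At least 10 peaks were found for 17 of the 24 genes and for 818 (17.1%) of all genes in the list. Because a gene receives every peak of the flanks around it, these counts are not densities. From the first to the last peak of each gene, 40.3 Mb in sum, the family had 19.0 peaks per Mb. The list had 11.3 per Mb up to the last peak of each chromosome. The 2 densities are not fully alike, since the family's spans begin and end at its own peaks. By chromosome, 187 of the peaks lay on chromosome 15, 151 on chromosome 2, 113 on chromosome 13, 97 on chromosome 19, 95 on the X chromosome, 60 on chromosome 14, 40 on chromosome 18 and 22 on chromosome 20. On chromosome 15 they made 13.3% of all HILS1 peaks of the chromosome.

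**Figure D1:**
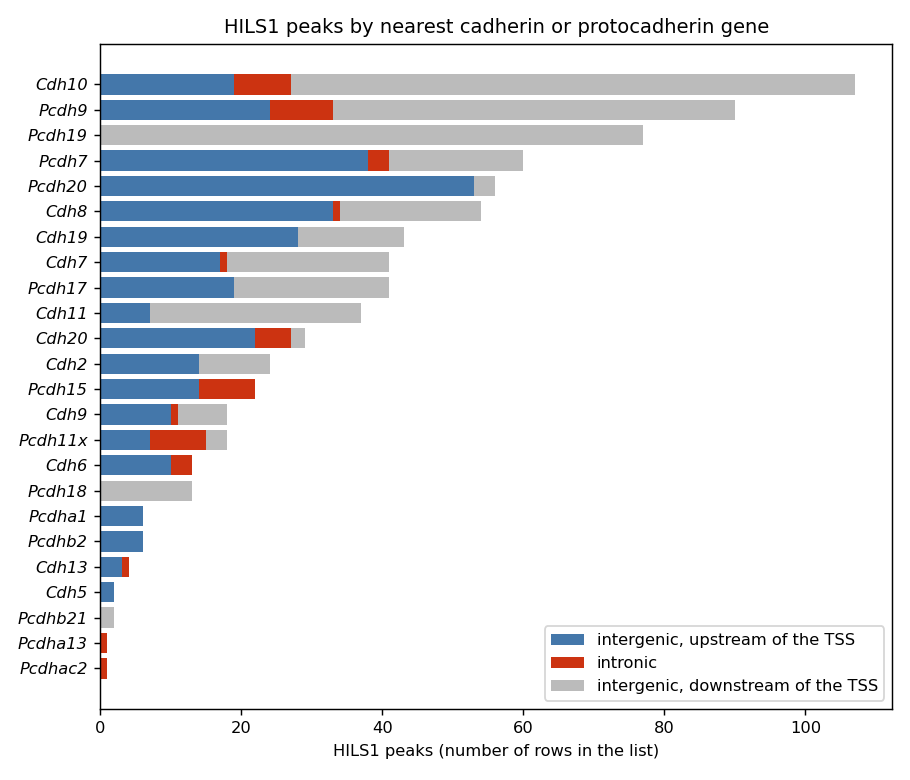
Number of HILS1 peaks (rows of the list) whose nearest gene was each of the 24 cadherin and protocadherin genes, split into intergenic peaks upstream of the transcription start site, intronic peaks and intergenic peaks downstream. Cdh10 leads with 107 peaks, of which 80 are intergenic and downstream, whereas 53 of the 56 Pcdh20 peaks are intergenic and upstream and all 77 Pcdh19 peaks lie downstream.

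Of the 24 genes, 14 adjoined a relative in the list. Assignment to the nearest TSS keeps the peaks of a gene together, and 5 stretches of consecutive peaks ran across 2 or more genes of the family. These 5 stretches held 464 (60.7%) of the 765 peaks. The longest runs were Pcdh20 and Pcdh9 on chromosome 15, with 146 peaks over 7.41 Mb (74967858 to 82379102 on rn5), and Cdh9 and Cdh10 on chromosome 2, with 125 peaks over 7.59 Mb (85643669 to 93232026). Cdh5, Cdh11 and Cdh8 followed each other on chromosome 19 with 93 peaks over 6.16 Mb (1124166 to 7287783), and Cdh7 and Cdh19 on chromosome 13 with 84 peaks over 3.77 Mb (34701252 to 38472238). The fifth stretch was the clustered protocadherin locus on chromosome 18, with 16 peaks over 0.763 Mb (29549459 to 30312792). When peaks less than 6000 bp apart were joined, the 765 peaks formed 383 groups, 177 of which were single peaks.

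LINE-1 elements held 738 of the 765 peaks (96.5%, CI 94.9 to 97.6), where the share over the whole list was 77.6% (77.1 to 78.0). Part of the list lies in 67 windows of 1 Mb with at least 50 peaks each, which hold 19.3% of all peaks but 12 (1.57%) of the cadherin and protocadherin peaks. Outside those windows the LINE-1 share was 96.8% (95.3 to 97.8) for the family and 88.9% (88.5 to 89.3) for all other peaks. All peaks lay in LINE-1 for 13 of the 24 genes, Cdh10, Pcdh20, Cdh11 and Cdh2 among them. Only 2 peaks of the family (0.261%) were in no annotated repeat and outside genes, against 10.3% of the list. This share of the list includes the windows with at least 50 peaks and was not computed without them.

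L1_Rn was the most frequent name, with 478 peaks (62.5%, CI 59.0 to 65.8), compared with 37.2% (36.7 to 37.8) of all peaks. L1_Rat1 held 192 peaks (25.1%, 22.2 to 28.3) and RNHAL1 held 49 (6.41%, 4.88 to 8.37), and both intervals include the shares over the list, 23.5% and 7.93%. The remaining 19 LINE-1 peaks carried 6 other names, led by L1_Rat2 with 9. Within LINE-1 alone, L1_Rn made 64.8% (61.3 to 68.1) of the family's peaks and 48.0% of those of the list. L1_Rat1 made 26.0% (23.0 to 29.3) against 30.3%, and RNHAL1 6.64% (5.06 to 8.67) against 10.2%. Among LINE-1 peaks, L1_Rn was thus above its share of the list and the other 2 names were below theirs by more than the counting error. Outside the dense windows L1_Rn held 62.7% (59.2 to 66.1) of the family's peaks and 44.2% of the other peaks, a smaller difference than over the list. L1_Rat1 held 25.2% (22.3 to 28.5) there against 28.4%, which its interval includes. RNHAL1 held 6.51% (4.96 to 8.50) of the family's peaks and 9.54% of the other peaks. In all, 9 of the 61 LINE-1 names in the list occurred in the family.

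Among genes with at least 10 peaks, the L1_Rn share ran from 41.4% at Cdh20 (12 of 29 peaks, CI 25.5 to 59.3) to 75.6% at Cdh7 (31 of 41, 60.7 to 86.2). Pcdh20 (75.0%), Cdh19 (74.4%), Pcdh15 (72.7%) and Pcdh9 (70.0%) stood next to Cdh7, and their intervals overlapped its own. L1_Rat1 ranged from 9.30% at Cdh19 to 45.8% at Cdh2, where it equalled L1_Rn with 11 peaks each. Neighbours in this order had overlapping intervals, so that the order of single genes is not resolved.

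The 27 peaks outside LINE-1 comprised 11 in the satellite-like repeat RatSatRep2, 3 in the satellite SATI_RN, 6 in simple repeats, 2 in CpG islands, 2 in the retroviral element RNIAP1a, 1 in a ribosomal RNA repeat and the 2 without a repeat. Cdh20 held 4 of the RatSatRep2 peaks, at 12.96- to 34.3-fold. The 3 SATI_RN peaks lay 894 to 906 kb upstream of Cdh19, between 38459026 and 38472238 on chromosome 13, at 21.3-, 30.6- and 36.1-fold. They fell in 1 of the windows with at least 50 peaks, which held all 12 of the family's peaks in such windows.

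The fold enrichment of the 765 peaks had a median of 26.9 (CI 25.9 to 27.8), with quartiles of 21.3 and 32.4 and a range of 7.41 to 107. The median of the list was 25.0 (25.0 to 25.9) with quartiles of 18.5 and 32.4, so the lower quartile was higher in the family and the upper one was the same. The medians did not differ outside the windows with at least 50 peaks, where both the family and the other peaks stood at 26.9, nor among LINE-1 peaks, at 26.9 in the family and in the list. In the family 7 peaks (0.915%, 0.444 to 1.88) reached 50-fold, where 1.96% of the list did. Outside the windows with at least 50 peaks these shares were 0.930% (0.451 to 1.91) for the family and 1.14% (1.02 to 1.28) for the other peaks, and the intervals overlap. The false discovery rate given by the authors had a median of 7.46% (range 3.03% to 27.6%) in the family and of 7.64% in the list. Peak length had a median of 769 bp (739 to 814) in the family, an interval that includes the 776 bp of the list.

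Compared within a repeat name, the family did not exceed the list in fold for L1_Rn or L1_Rat1. L1_Rn peaks had a median of 27.8 (26.9 to 28.7) in the family and 30.6 (29.6 to 30.6) in the list, and L1_Rat1 peaks 23.2 (22.2 to 24.1) and 24.1. RNHAL1 peaks had a median of 29.6 (26.9 to 33.3) in the family and 26.9 in the list. L1_Rn peaks of the family were also shorter, at a median of 844 bp against 902 bp. Across the 765 peaks, Spearman's rho was 0.488 between fold and length and -0.023 between fold and distance to the transcription start site (0.460 and -0.094 over the list), given as a description because longer peaks and pieces of the same called peak are not independent.

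**Figure D2:**
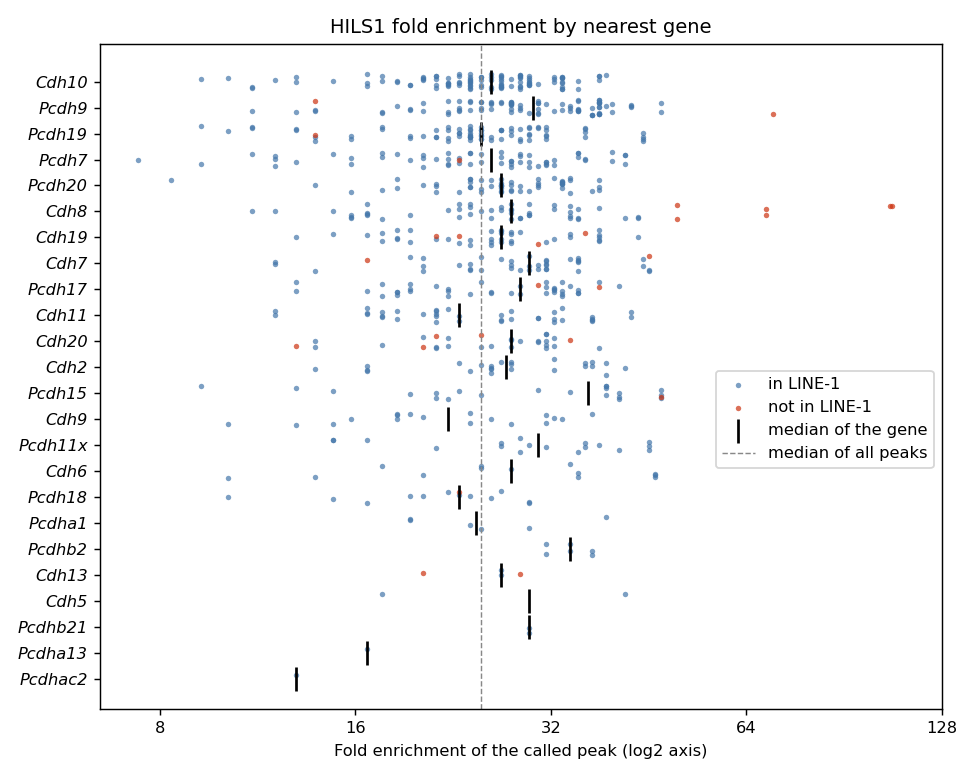
Fold enrichment of each of the 765 peaks on a log2 axis, by nearest gene, with peaks in LINE-1 in blue and other peaks in red, shifted vertically within a gene for legibility. Black bars mark the median of the gene and the dashed line the list median of 25.0. The genes overlap broadly, and the 7 peaks at 50-fold or more, 6 nearest Cdh8 and 1 nearest Pcdh9, all lie outside LINE-1.

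Gene medians were close together. Among genes with at least 10 peaks the lowest median was 22.2 at Cdh9 (CI 18.5 to 31.5) and the highest 36.6 at Pcdh15 (21.3 to 40.7), and these intervals overlap. Pcdh9, with 90 peaks from 58 called peaks, had a median of 30.1 (27.8 to 33.3). Cdh10 stood at 25.9 (24.1 to 26.9) and Pcdh19 at 25.0 (24.1 to 26.9), from 83 and 55 called peaks. Pieces of a called peak share a fold, so these intervals count some folds more than once. Whether these genes differ was not tested. The lowest fold enrichments in the family were 7.41 at a Pcdh7 peak with a false discovery rate of 27.6% and 8.33 at a Pcdh20 peak. They were followed by 9.26 at 1 peak each of Pcdh7, Pcdh15, Cdh10 and Pcdh19.

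The distances to the transcription start site (TSS) were long. The median was 863 kb (793 to 991) for the family and 199 kb (195 to 203) for the list. More than 100 kb separated 707 of the peaks (92.4%) from the TSS, more than 500 kb 488 (63.8%) and more than 1 Mb 351 (45.9%, 42.4 to 49.4). In the whole list these shares were 67.4%, 25.5% and 10.7%. The family thus made 10.03% (9.08 to 11.1) of the 3498 peaks more than 1 Mb from a TSS. Beyond 3 Mb lay 61 family peaks (7.97%) against 0.422% of the list, which is 44.2% (36.2 to 52.5) of the 138 peaks that far away. Those 61 peaks were 39 of Cdh10 and 22 of Pcdh19, so this last share rests on 2 genes. With each gene weighted equally the median distance of the family was 391 kb, and without Cdh10 it was 790 kb. The list was not reweighted in this way. Of the 20 farthest peaks in the list, 15 were nearest Cdh10. Distances this long depend on which genes the rn5 annotation held, as described below for Cdh10. Upstream of the TSS lay 333 of the family's peaks (43.5%, 40.1 to 47.1), and 52.0% of the list. With each gene weighted equally the upstream share of the family was 53.3%, above that of the list, which was not reweighted.

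**Figure D3:**
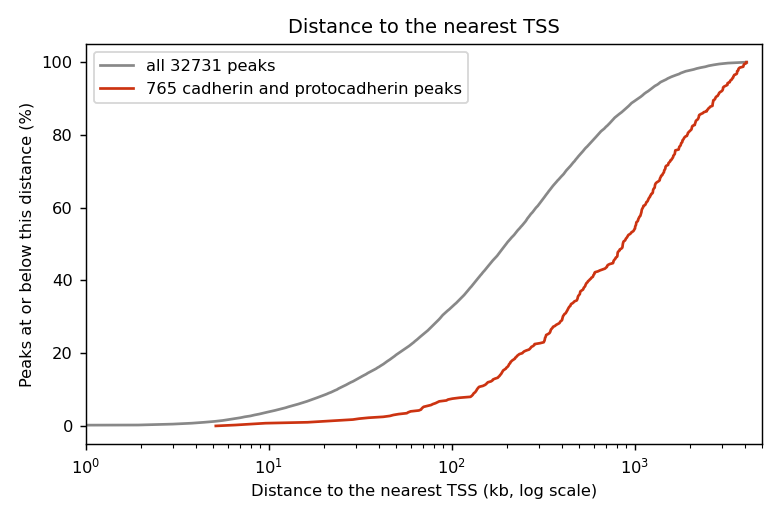
Share of peaks (%) at or below each distance to the nearest transcription start site (kb, log scale) for the 765 cadherin and protocadherin peaks in red and all 32731 peaks in grey. The red curve begins at 5.15 kb, and the curves cross the middle of the scale at their medians of 863 and 199 kb.

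At every distance the peaks remained mostly in LINE-1. Within 100 kb of the TSS 56 of 58 family peaks (96.6%) were in LINE-1, between 100 and 500 kb 203 of 219 (92.7%), between 500 kb and 1 Mb 132 of 137 (96.4%) and beyond 1 Mb 347 of 351 (98.9%, 97.1 to 99.6). For all other peaks these shares were 84.7%, 75.9%, 71.9% and 64.7% (63.0 to 66.4). With the 67 dense windows left out, 84.4% (82.8 to 85.9) of the 2067 other peaks beyond 1 Mb were in LINE-1, and the family's value stayed at 98.9% because none of its distant peaks lay in such a window. Median fold beyond 1 Mb was 26.9 (25.9 to 27.8) for the family and, outside the dense windows, 25.0 (24.1 to 25.9) for the other peaks.

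**Figure D4:**
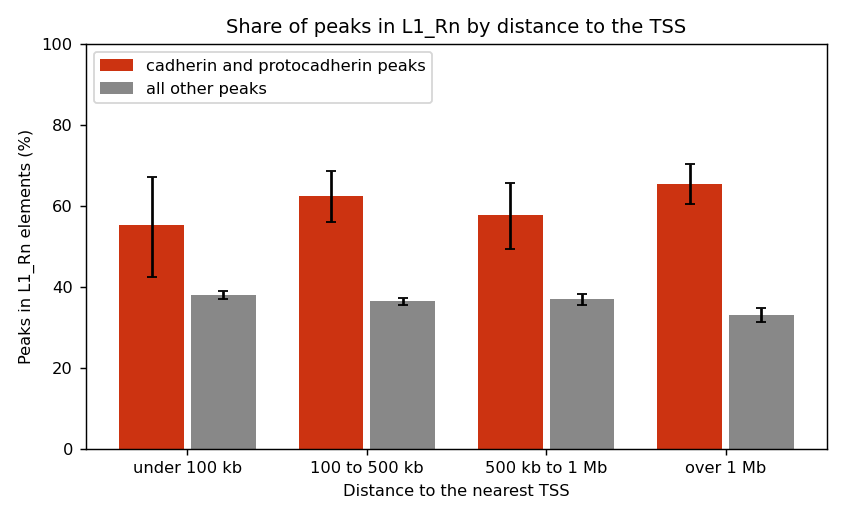
Share of peaks (%) in L1_Rn by distance to the nearest transcription start site, for the cadherin and protocadherin peaks (red) and all other peaks (grey), with 95% Wilson intervals that cover counting error only. The red bars lie between 55.2% and 65.5% and the grey bars between 33.0% and 37.9%, with no overlap of intervals at any distance.

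The L1_Rn share was above that of the other peaks in each range of distance, at 55.2% (42.5 to 67.3) against 37.9% within 100 kb and 65.5% (60.4 to 70.3) against 33.0% (31.4 to 34.7) beyond 1 Mb. Outside the dense windows the other peaks beyond 1 Mb stood at 47.6% (45.4 to 49.7). The difference at long distances was therefore smaller, but not lost, when these windows were set aside. The nearer ranges were not recomputed in this way.

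**Figure D5:**
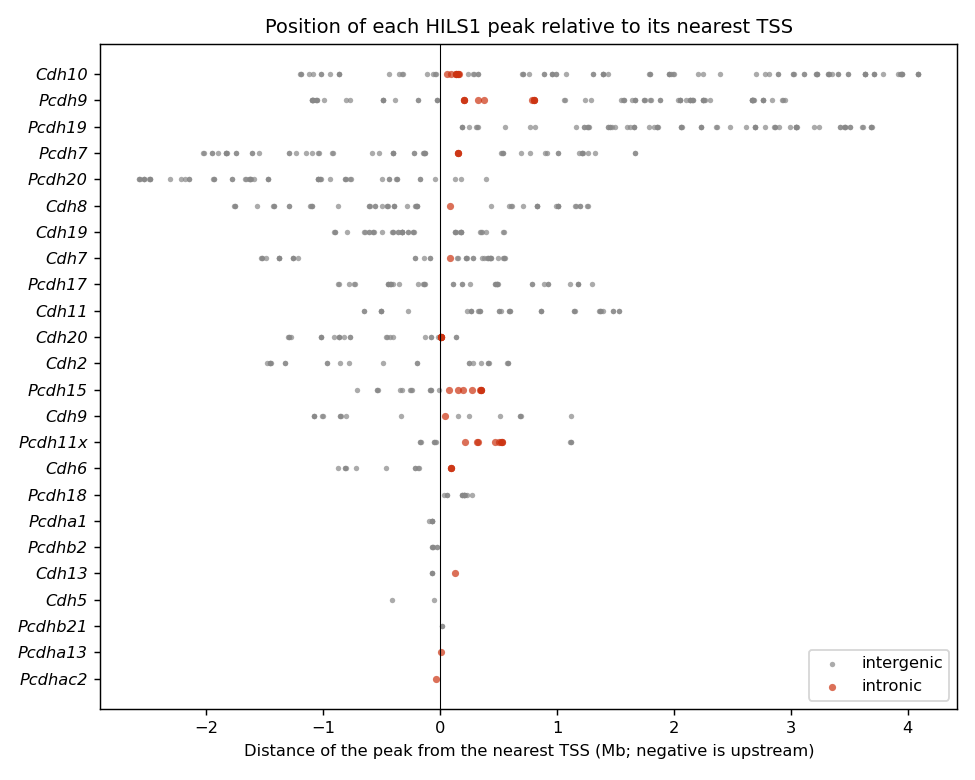
Signed distance (Mb) of each of the 765 peaks from the transcription start site of its nearest gene, negative upstream, with intronic peaks in red and intergenic peaks in grey. Cdh10 and Pcdh19 reach more than 3 Mb downstream, Pcdh20 reaches 2.57 Mb upstream, and the intronic peaks cluster at a few positions in each gene.

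Introns held 50 of the 765 peaks (6.54%, 4.99 to 8.51), from 35 called peaks, and the share of intronic peaks in the list was 13.9%. The other 715 were intergenic. None was annotated to an exon, a UTR, a promoter or a transcription termination site, which allows a share of up to 0.392%, and 0.199% of the list (65 peaks) was annotated to one of these. Counted by nearest gene, intronic peaks were found for 13 of the 24 genes, and 29 of the 50 lay in the first or second intron. The same share over the list was not computed, and the transcripts of Pcdh7 and Pcdh9 have only 2 and 3 introns. In 1 of the 13, Pcdhac2, the intronic peak lay upstream of the TSS of the gene. LINE-1 held 48 of the 50 intronic peaks (96.0%, 86.5 to 98.9) and 690 of the 715 intergenic ones (96.5%, 94.9 to 97.6), where 88.1% of all intronic and 76.1% of all intergenic peaks of the list were in LINE-1. L1_Rn held 52.0% (38.5 to 65.2) of the intronic and 63.2% (59.6 to 66.7) of the intergenic peaks of the family, and these intervals overlap. Median fold was 27.8 (23.2 to 29.6) in introns and 26.9 between genes. In the family, introns and intergenic flanks thus differed in neither LINE-1 share nor fold by more than the counting error. The intronic share depended on how the far flanks were counted. It was 15.2% for family peaks within 500 kb of the TSS, where the list had 17.7%, and 15.8% when each gene of the family had the same weight, with Pcdha13 and Pcdhac2, whose single peak was intronic, counting as much as Cdh10. Without Cdh10 it was 6.38%.

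Type II classical cadherins made the largest group, with 344 peaks (45.0%) over 9 genes. Of these, 19 were intronic and 327 in LINE-1, the median fold was 26.9 and the median distance 711 kb. These cadherins guide the sorting and connection of cells in many tissues, and several are best known from the brain.

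Cdh10 encodes a type II cadherin of the nervous system and ranked 19th of all genes in the list. All 107 of its peaks were in LINE-1, 67 of them in L1_Rn, 27 in L1_Rat1 and 8 in RNHAL1, at 9.26- to 38.9-fold. They ran over 5.29 Mb of chromosome 2 (87944551 to 93232026), from 1.20 Mb upstream to 4.09 Mb downstream of the TSS, and 71 were more than 1 Mb away. The farthest began at 93231263, 4090886 bp from the TSS, in L1_Rn at 26.9-fold.

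Downstream of the Cdh10 TSS, 24 peaks lay within 1 Mb, 17 between 1 and 2 Mb, 8 between 2 and 3 Mb and 39 between 3 and 4.2 Mb, with median folds of 24.5, 28.7, 22.2 and 25.9. The numbers thus fell over the first 3 Mb and were highest in the last, slightly wider range. The next peak, at 93251732, was assigned to Basp1. In the RefSeq annotation of the newer rat assembly GRCr8, the cadherin genes Cdh12 and Cdh18 stand between Cdh10 and Basp1. The list names neither as a nearest gene nor contains a transcript of either. Distances and gene names near Cdh10 thus depend on which genes the rn5 annotation held, and the peaks far downstream of Cdh10 cannot be placed relative to Cdh12 and Cdh18 here.

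Inside Cdh10, 1 peak lay in intron 1 of 11 at 25.0-fold and 7 in intron 2, between 89235931 and 89303977, at 14.8- to 28.7-fold. Of those 7, 4 were in L1_Rat1 and 3, pieces of a single called peak at 23.2-fold, in L1_Rn. Cdh9, another type II cadherin of the nervous system, had 18 peaks, all in LINE-1, at 10.2- to 37.0-fold, with 1 in intron 1 of 10 at 15.7-fold. Its peaks were the sparsest among genes with at least 10 peaks, at 8.19 per Mb between its first and last peak.

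Cdh8, a type II cadherin of the brain, had 54 peaks, of which 33 were intergenic upstream, 20 intergenic downstream and 1 in intron 2 of 11, at 29.6-fold in L1_Rn. It carried the highest fold enrichments of the family, and these lay together in 14.6 kb, about 198 to 210 kb upstream of the TSS (chromosome 19, 5812692 to 5827336). In order of position, the 6 peaks there were in (TTTG)n at 106-fold, (CAAA)n at 68.5-fold, (CGTG)n at 68.5-fold, a CpG island at 50.0-fold, the ribosomal RNA repeat LSU-rRNA_Hsa at 50.0-fold and a CpG island at 107-fold. They came from 5 called peaks, and none was in LINE-1. The other 48 Cdh8 peaks were all in LINE-1, at 11.1- to 43.5-fold with a median of 27.3. The site therefore stood apart from the rest of Cdh8 in both repeat and fold. In the list 99.6% of peaks had a lower fold than its highest. The 22 LSU-rRNA_Hsa peaks of the list had a median of 62.0-fold (25.0 to 87.96), so 50.0-fold was not high for that repeat. The 17 CpG island peaks of the list had a median of 22.2-fold (12.96 to 32.4), below both CpG island peaks of the site. The simple repeats of the site held only 1 or 2 peaks each in the list, too few to compare.

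Cdh11, which is known from bone and mesenchymal cells, had 37 peaks, all in LINE-1 and all intergenic, at 12.04- to 42.6-fold. Of these, 30 were downstream, out to 1.53 Mb. A called peak 4.39 kb across (2966726 to 2971118 on chromosome 19) gave 4 of them at 37.0-fold. Cdh5, the cadherin of blood vessel endothelium, had 2 peaks, both upstream and in LINE-1.

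Cdh7 and Cdh19 had 41 and 43 peaks. Cdh7 had 1 peak in intron 5 of 10, at 35.2-fold in L1_Rn, and its other peaks reached 1.53 Mb upstream and 0.554 Mb downstream. Cdh19 had no intronic peak and none beyond 1 Mb, and 28 of its peaks lay upstream. Its peaks were dense, at 29.6 per Mb, and 5 of them were pieces of 1 called peak at 26.9-fold (37889485 to 37894194). Both genes were among those with the highest L1_Rn share.

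Cdh20 had 29 peaks, among them the 3 closest to a TSS in the family. A cluster of 5 peaks in intron 1 of 10 lay 5.15 to 9.97 kb from the TSS (chromosome 13, 30023215 to 30028599), all in L1_Rn and at 17.6- to 25.9-fold. Another 22 were intergenic upstream, out to 1.30 Mb, and 24 of the 29 were in LINE-1. Cdh6, a type II cadherin known from the developing kidney, had 13 peaks, all in LINE-1. Its highest fold, 46.3, belonged to 3 pieces of a called peak in intron 2 of 22 (chromosome 2, 81540523 to 81544699), all in L1_Rat1, with the lowest false discovery rate of the family, 3.03%.

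Cdh2, the N-cadherin of neurons, muscle and Sertoli cells, was the only type I classical cadherin with a peak. All 24 of its peaks were in LINE-1 and none was intronic, 14 lay upstream and 10 downstream, and the nearest was 194 kb from the TSS. Their folds lay between 13.9 and 41.7, around a median of 27.3 (25.0 to 36.1). Cdh13, a cadherin anchored to the membrane by a lipid instead of a transmembrane segment, was the nearest gene of 4 peaks, of which 1 lay in intron 1 of 13, in (TCTG)n at 20.4-fold. Counted by transcript, Cdh13 held 3 intronic peaks, because 2 in intron 8 of 13 had Hsbp1 as their nearest TSS. Those 2 were in the retroviral repeat RNERVK8c-int at 14.8- and 8.33-fold. Over the family, 51 intronic peaks were annotated to cadherin or protocadherin transcripts, and the transcript of 1 of the 50 counted by nearest gene was not matched to a gene.

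Delta-1 protocadherins, the non-clustered protocadherins with the longer extracellular part, had 168 peaks over 3 genes, of which 165 were in LINE-1 and 20 intronic. Their median fold was 28.2 and their median distance 1118 kb. Pcdh9 had 90 peaks over 4.04 Mb of chromosome 15, 88 of them in LINE-1 and 63 in L1_Rn, and 68 were more than 1 Mb from the TSS. Its 9 intronic peaks were spread over all 3 introns, with 4 in intron 1, 1 in intron 2 and 4 in intron 3, at 26.9- to 35.2-fold.

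The largest group of peaks less than 6000 bp apart was in the intergenic flank downstream of Pcdh9, where 9 LINE-1 peaks lay in 17.1 kb (78604049 to 78621181) at 13.9- to 38.0-fold. Of these, 5 were pieces of 1 called peak. Pcdh9 also had the only peak at 50-fold or more outside the Cdh8 site, in the telomere-type repeat (TTAGGG)n, 382 kb upstream (81667977 to 81668901) at 70.4-fold. This repeat held 16 peaks of the list, with a median of 25.9-fold, and the other family peak in it lay upstream of Pcdh17 at 30.6-fold.

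Pcdh7 had 60 peaks, of which 38 were intergenic upstream, out to 2.02 Mb, and 3 in intron 1 of 2, in L1_Rn at 29.6- to 35.2-fold. It held both the lowest fold of the family and its longest peak, 3925 bp in RNHAL1 at 41.7-fold. Pcdh11x, on the X chromosome, had 18 peaks, all in LINE-1, of which 8 were intronic. They lay in introns 3 to 6 of 7, and the highest, at 45.4-fold, were 3 pieces of a called peak in intron 6 (93023151 to 93028358), all in RNHAL1.

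Delta-2 protocadherins, which include Pcdh19, a gene mutated in a form of human epilepsy, had 131 peaks over 3 genes. None was intronic, 127 were in LINE-1, the median fold was 25.0 and the median distance 1230 kb. All 77 Pcdh19 peaks lay downstream of its TSS, from 187 kb to 3.69 Mb, with 67 beyond 1 Mb, and 76 were in LINE-1. Pcdh17 had 19 peaks upstream and 22 downstream, between 110 kb and 1.30 Mb from the TSS, at 12.96- to 40.7-fold. The 13 Pcdh18 peaks lay downstream of the TSS, between 36.2 and 273 kb from it, and stood at 54.8 per Mb from the first to the last, the highest density among genes with at least 10 peaks, at 10.2- to 29.6-fold.

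Pcdh20, which belongs to neither delta group here, had 56 peaks, all in LINE-1 and 42 of them in L1_Rn. All but 3 were upstream, out to 2.57 Mb, on the side where Pcdh9 lies. Pcdh15, a component of the tip links of inner ear hair cells, had 22 peaks, of which 8 were intronic and 14 upstream. The intronic peaks were in introns 7, 12, 15, 20 and 22 of 28, with folds from 9.26 in intron 7 to 47.2 in intron 22. The latter was a called peak in 4 pieces (chromosome 20, 17170090 to 17176887), 3 in L1_Rn and 1 in RatSatRep2. Its fold was the highest of the family in LINE-1, equalled by 2 pieces of a called peak in L1_Rn downstream of Pcdh9 (chromosome 15, 79039816 to 79042319).

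Clustered protocadherins, which give neurons individual surface identities, had 16 peaks over 5 gene names, all in LINE-1, with a median fold of 29.6 and a median distance of 63.7 kb. Pcdha1 had 6, all upstream, of which 5 were in L1_Rat1, and Pcdhb2 had 6, all upstream, in L1_Rn at 31.5- to 37.0-fold. Pcdhb21 had 2 in RNHAL1 at 29.6-fold. Pcdha13 and Pcdhac2 were each the nearest gene of 1 intronic peak, at 16.7-fold in L1_Rat2 and at 12.96-fold in L1_Rat1. The Pcdhac2 peak lay 35.0 kb upstream of the TSS it was assigned to. Its intron, 1 of 3, therefore belongs to a transcript that starts farther upstream. Genes of this cluster overlap, and 3 of the names are synonyms of a single RefSeq symbol, so the nearest name within the cluster is uncertain.

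Not every gene of the family was named. RefSeq on GRCr8 lists 43 cadherin and protocadherin symbols outside the protocadherin cluster, and 19 of them had a peak. Those without were Cdh1, Cdh3, Cdh4, Cdh7l1, Cdh12, Cdh15, Cdh16, Cdh17, Cdh18, Cdh22, Cdh23, Cdh24, Cdh26, Cdhr1, Cdhr2, Cdhr3, Cdhr4, Cdhr5, Cdhr17, Cdhr18, Pcdh1, Pcdh8, Pcdh10 and Pcdh12. Of the type II cadherins 9 of 13 had a peak and of the type I cadherins 1 of 5. Whether the rn5 annotation behind the list held each of these genes was not tested.

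Relatives and partners of the cadherins gave the surroundings of these values. Of 20 further members of the cadherin superfamily, 7 had peaks, 91 in all, of which 66 (72.5%, 62.6 to 80.6) were in LINE-1 and 10 intronic, with a median fold of 27.8. Their median distance to the TSS was 546 kb, between the 199 kb of the list and the 863 kb of the family. Fat4 (27 of 28 peaks) and the desmosomal cadherin Dsc3 (22 of 23) lay almost wholly in LINE-1. Fat3 had 4 of 24 in LINE-1 and 16 in the satellite 91ES8_RN. Of 11 catenins, the proteins that bind cadherin tails, and their relatives, 3 had peaks, 40 in all, with 36 (90.0%, 76.9 to 96.0) in LINE-1 and 15 (37.5%) in introns. Ctnna2, which encodes an alpha-catenin of neurons, held 11 of those 15. The median distance of the catenin peaks was 223 kb.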

How the data were processed

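HILS1 ChIP sequencing of rat elongating and condensing spermatids was deposited as 1 list of 32731 peaks for 2 ChIP replicates and 1 input library. According to the study's methods, the authors trimmed the reads, kept unique Bowtie2 alignments to rn5 without PCR duplicates and ran MACS on each ChIP replicate with the input as control. They intersected both sets with bedtools, kept shared stretches of 100 to 4000 bp and annotated them with HOMER. Unique alignment leaves out reads from identical repeat copies, which can lower the number of peaks in the youngest LINE-1 elements, and this was not tested. The deposited fold enrichment is a linear ratio from MACS. The score deposited by the authors is MACS's transformed p-value, and the false discovery rate is deposited in percent. The replicate behind these values is not given in the sources used here, nor are library depths. The submitters' processing notes name FastQC, Trim Galore, Bowtie2, SAMtools, bedtools and HOMER without versions.

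Peaks were selected by nearest gene name and counted by gene, region, repeat and distance. Members and gene lists were chosen with earlier results of these data known. Named were the 12 genes with the most peaks, genes with an intronic or CpG island peak, those at the 5 highest and 5 lowest folds and the 5 nearest and 5 farthest peaks, family genes without a peak, and LINE-1 names with at least 5 peaks. The remaining genes with a peak were added after their values were seen. No test across peaks was run, because peaks are not replicates. Intervals are at 95%. The upper limit for a count of 0 uses 3 peaks. Coordinates are those of the list on rn5, and RefSeq on GRCr8 gave gene names and gene order only, matching 21 of the 24 names by symbol and 3 as synonyms. No peak sequence was read, since no rn5 genome was used here. The alternatives were a score of at least 100, a fold of 16 or more, false discovery rates up to 10%, a length of at least 500 bp, the longest piece of each called peak, joining peaks less than 6000 bp apart, leaving out Cdh10 and keeping peaks within 500 kb. Weighting genes equally and setting aside 1 Mb windows that hold 50 or more peaks were added after seeing the data. Counting and intervals were tested on simulated data with peaks independent of each other, which does not test the intervals for neighbouring peaks or pieces of a called peak. Python 3.11.15 with numpy 2.4.6, pandas 2.3.3, scipy 1.17.1 and matplotlib 3.10.9 was used.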

Additional observations from a re-analysis of the deposited data

How the results depend on the processing

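Over 69 recomputed values, 52 moved by less than the counting interval and 17 by more. Keeping only peaks within 500 kb of the TSS moved the family's share of the list from 2.34% to 1.14%, its LINE-1 share from 96.5% to 93.5%, its intronic share from 6.54% to 15.2%, its upstream share from 43.5% to 51.3% and its median distance from 863 to 216 kb. The list gave 80.0%, 17.7%, 51.7% and 123 kb for the last 4 under the same limit. Without Cdh10 the share of the list was 2.02%, the upstream share 47.7% and the median distance 790 kb. With each gene weighted equally, an alternative chosen after seeing the data, the intronic share was 15.8%, the upstream share 53.3% and the median distance 391 kb, where Pcdha13 and Pcdhac2, with 1 intronic peak each and no other, count as much as Cdh10. The list was not reweighted. The share of the list was 2.60% at a fold of at least 16 and 2.85% without the dense windows of 1 Mb. Median fold was 25.0 when the longest piece of each called peak was kept. Median length was 817 bp at a fold of at least 16, 824 bp at false discovery rates up to 10% and 844 bp when peaks less than 6000 bp apart were joined. The list gave 846, 852 and 856.5 bp under the same settings. The LINE-1 share of the family stayed between 93.5% and 96.9% under all alternatives run. That of the list moved more, from 74.6% with the longest piece of each called peak to 89.1% without the dense windows. The distance between family and list therefore depended on the setting.

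No paired analysis was possible because the list pools both replicates and the input has no values of its own, and neither replicate was left out because the list holds no values per replicate. Depth is unknown, and genes without a peak cannot be told apart from genes below detection.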
